A study of Mus musculus with 6 samples.

Results

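Hdac1 transcripts in HDAC1-cKO T cells stood at 6.61% of the WT level, and 3 annotated processed pseudogenes of Hdac1 stood at 6.18 to 7.25% of theirs, while edgeR called none of the other class I histone deacetylase (HDAC) genes and DESeq2 called Hdac3. Described here are 7 of the 55536 genes in the deposited tables: the class I HDAC genes Hdac1, Hdac2, Hdac3 and Hdac8, and the copies Gm10093, Gm4864 and AC125456.1, found by gene name. Hdac1 and its copies were chosen by their counts and FPKM in these same libraries, where their low levels in HDAC1-cKO cells were known. Their values are therefore given as a description with no test. Tests are given for Hdac2, Hdac3 and Hdac8, which belong to the set by family, although earlier results of these data were known when it was chosen. All 7 genes passed the filter on low counts.

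HDAC1-cKO cells were CD4+ T cells of genotype 2D2-Hdac1fl/fl-Cd4-Cre+, and WT cells were of genotype 2D2-Hdac1fl/fl-Cd4-Cre-, both from C57BL/6 mice. Both genotypes thus carried the floxed Hdac1 alleles and the 2D2 transgene, which encodes a T cell receptor that recognises the myelin protein MOG, and differed by Cre recombinase under the Cd4 promoter. This promoter is active during T cell development in the thymus, so deletion precedes the activation studied. Naive CD45.2+ donor cells of either genotype were injected into CD45.1+ recipients, which were immunised in the footpad 18 hours later with MOG35-55 peptide in complete Freund's adjuvant (CFA). After 4 days, 500 donor-derived 2D2+ CD4+ cells per library were sorted from the draining popliteal nodes and sequenced by the low-input Smart-seq2 method. There were 3 libraries per genotype, each from a pool of 2 mice. The recipients kept their own lymphocytes, and no cells from before transfer were measured.

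Class I HDACs are nuclear enzymes that remove acetyl groups from histone tails, which generally compacts chromatin and lowers transcription. HDAC1 and its closest relative HDAC2 act in the SIN3, NuRD, CoREST and MiDAC corepressor complexes, HDAC3 acts in the NCoR and SMRT complex, and HDAC8 works outside these complexes and deacetylates the cohesin subunit SMC3. In mice, HDAC1 and HDAC2 share much of their work in T cells, and a higher protein level of the remaining paralogue has been seen where either is lost. A processed pseudogene is a DNA copy of a spliced messenger RNA that was reverse-transcribed and inserted elsewhere in the genome, so it holds the exons joined without introns and usually has no promoter of its own.

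The total count was 19956153 to 36307610 in HDAC1-cKO libraries and 39036751 to 55900237 in WT libraries, so every WT library was the deeper. HDAC1-cKO 2 stood apart. Across 8332 genes, which are not independent replicates, GC content correlated with how far a gene departed from its mean over the libraries: Pearson's r was 0.585 in HDAC1-cKO 2 and -0.281 to -0.0729 in the rest. FPKM, the unit of the levels here, are fragments per kilobase of transcript scaled to library size, a level per length. The 10 T cell markers were all expressed, and summed to 37237 to 49575 FPKM in HDAC1-cKO and 42626 to 51916 FPKM in WT. Of these, 9 had a log2 fold change below 0 in HDAC1-cKO and 1 above 0. The libraries did not overlap in 5, against 24.6% of all tested genes. At an adjusted p under 0.05 edgeR called 2 of the 10, against 1.97% of all tested genes. DESeq2 and limma on log2(FPKM + 1) called 3 each, against 8.78% and 2.67%. The CD3 chain gene Cd3e fell by 1.42 and the adhesion gene Cd2 fell by 0.65 in HDAC1-cKO as log2 fold changes (edgeR adjusted p = 0.0102 and 0.0310). Another CD3 chain gene, Cd3g, fell by 0.64 without overlap (edgeR adjusted p = 0.0605). The Cd3e call ended without HDAC1-cKO 1, HDAC1-cKO 3 or WT 3 (edgeR adjusted p = 0.0606, 0.0716 and 0.0504), and the Cd2 call ended without any 1 library but HDAC1-cKO 2 (edgeR adjusted p from 0.0616 to 0.137). Among markers of other cells, the summed FPKM in HDAC1-cKO and WT libraries was 43.4 to 47.6 and 30.2 to 38.9 for the 2 CD8 T cell genes, 20.4 to 38.8 and 10.2 to 24.3 for 6 B cell genes, and 4.23 to 5.61 and 6.20 to 22.9 for 10 myeloid and dendritic cell genes. It was 0.257 to 0.961 and 0.859 to 1.28 for 3 NK cell genes, and 13.9 to 19.2 and 15.2 to 23.8 for 5 stromal and endothelial genes. The T cell sum is mostly the receptor genes Trbc2 and Trac, and the CD8 sum is nearly all Cd8b1, at 44.5, 47.3 and 43.0 FPKM in HDAC1-cKO and 29.9, 30.3 and 38.2 FPKM in WT. These values overlap those of Cd4 in HDAC1-cKO and lie below them in WT, since Cd4 had 43.8, 75.5 and 47.7 FPKM in HDAC1-cKO and 46.1, 52.4 and 58.2 FPKM in WT. Cd8a was near 0, at 0.294 to 0.802 FPKM in HDAC1-cKO and 0.00574 to 0.752 FPKM in WT, with overlapping libraries. Csf1r, Cd14, Flt3, Ncr1, Col1a2 and Pdgfra were listed at 0 in every library. The CD8 and myeloid sums did not overlap between genotypes. Among 6 tested myeloid genes the libraries did not overlap in 1, Xcr1, at 0.343 to 1.06 FPKM in HDAC1-cKO and 2.15 to 2.49 FPKM in WT. The B cell sums overlapped, but among the 6 genes Cd79b did not, at 12.8 to 17.8 and 6.03 to 8.59 FPKM (edgeR adjusted p = 0.0592). DESeq2 called Xcr1, Cd79b and Cd8b1, against 8.78% of all tested genes. The libraries of Cd8b1 did not overlap either (edgeR adjusted p = 0.127), and 24.6% of all tested genes had no overlap. The part of these markers in the results below was not tested. In RNA of bulk samples, fewer cells of a type and less RNA per cell cannot be told apart.

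The copies matter here because 50-base reads of Hdac1 can match them. The stretch shown first surrounds the join between Hdac1 messenger RNA bases 922 and 923, counted from the 5′ end, where 2 exons meet. In the Hdac1 line the capitals mark the bases on either side of the join; in every other line they mark bases that differ from Hdac1. All sequences are GENCODE M21 transcripts on GRCm38, read 5′ to 3′ on the strand of the gene. Hdac1 (minus strand) and Hdac2 (plus strand) span an intron here, at chr4:129518922-129519101 and chr10:36993835-36997038, while Gm10093 (plus strand) and Gm4864 (minus strand) hold the same bases without a break, at chr17:78492370-78492469 and chr12:77624130-77624229.
Hdac1: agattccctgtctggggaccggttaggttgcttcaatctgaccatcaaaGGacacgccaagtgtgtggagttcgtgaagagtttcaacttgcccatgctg
Gm10093: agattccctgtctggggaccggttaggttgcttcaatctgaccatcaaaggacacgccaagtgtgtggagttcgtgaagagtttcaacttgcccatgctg
Gm4864: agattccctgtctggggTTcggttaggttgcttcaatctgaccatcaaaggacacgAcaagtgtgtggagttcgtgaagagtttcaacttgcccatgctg
Hdac2: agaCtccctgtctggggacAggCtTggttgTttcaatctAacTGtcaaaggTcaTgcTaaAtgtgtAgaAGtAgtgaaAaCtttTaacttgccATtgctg
Over these 100 bases Gm10093 had 0, Gm4864 had 3 and Hdac2 had 21 differences from Hdac1, so a read of 50 bases across this join is the same in spliced Hdac1 and in the Gm10093 locus.

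The stretch shown next, bases 467 to 566 of the Hdac1 messenger RNA, is where Gm10093 departs most from Hdac1. It lies at chr4:129522975-129523074 in Hdac1, chr17:78491964-78492063 in Gm10093, chr12:77624528-77624627 in Gm4864 and chr10:36989177-36989276 in Hdac2, on the strands given above, and capitals mark differences from Hdac1.
Hdac1: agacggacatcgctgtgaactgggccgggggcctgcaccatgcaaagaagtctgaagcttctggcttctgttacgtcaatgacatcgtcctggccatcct
Gm10093: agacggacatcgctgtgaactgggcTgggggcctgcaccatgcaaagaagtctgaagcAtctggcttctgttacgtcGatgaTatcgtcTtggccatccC
Gm4864: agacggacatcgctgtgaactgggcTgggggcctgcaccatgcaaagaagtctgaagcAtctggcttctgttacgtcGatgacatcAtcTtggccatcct
Hdac2: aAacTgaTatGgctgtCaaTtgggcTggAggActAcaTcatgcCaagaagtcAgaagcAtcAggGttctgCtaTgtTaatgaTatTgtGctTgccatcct
Here Gm10093 had 6, Gm4864 had 5 and Hdac2 had 23 differences from Hdac1.

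Along their whole length the copies were far closer to Hdac1 than its functional relatives were. The Hdac1 transcript has 2038 bases in 14 exons, with coding bases 85 to 1530 (1446 bases). Each copy is 1 exon that starts at base 85, the first coding base, and covers little beyond the coding part. Gm10093 (ENSMUSG00000061062, chr17:78491582-78493025, plus strand, 1444 bases) was 99.38% identical to Hdac1, with 9 mismatches and an unbroken identical run of 450 bases. Gm4864 (ENSMUSG00000112003, chr12:77623549-77625009, minus strand, 1461 bases) was 96.12% identical, with 56 mismatches and a longest identical run of 101 bases. Identities leave out gaps, which in this alignment took 9 bases in the copy and 19 in Hdac1. AC125456.1 (ENSMUSG00000118241, chr18:85847280-85848729, minus strand, 1450 bases) was 96.34% identical, with 53 mismatches and a longest run of 168 bases. Of the 9 bases at which Gm10093 differed, 5 were the same in Gm4864 and 5 the same in AC125456.1, and 4 positions, between bases 492 and 1254, held the same non-Hdac1 base in all 3 copies. The coding parts of Hdac2, Hdac3 and Hdac8 were 75.92%, 65.37% and 58.29% identical to Hdac1, with longest identical runs of 17, 23 and 12 bases, so a 50-base read without errors separates these 4 genes. These identities cover 1441, 1259 and 1110 aligned bases. They come from coding parts only, aligned with a milder cost of mismatches than the copies. The coding Hdac1 transcript shared 50-base stretches with the 3 copies only, among all GENCODE M21 transcripts, and those of Hdac2, Hdac3 and Hdac8 with no other gene. Counting every annotated Hdac1 transcript, those with retained introns included, 169 genes shared a stretch with it.

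**Figure D1:**
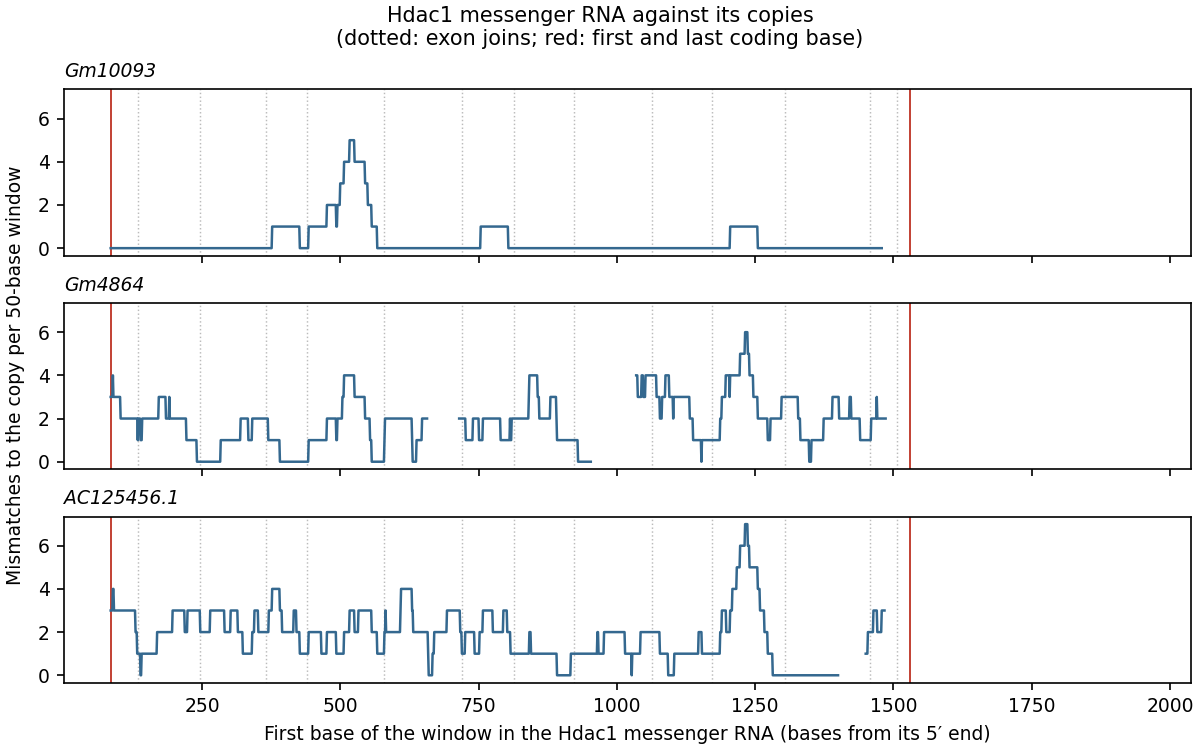
Mismatches between each 50-base window of the Hdac1 messenger RNA and each copy (vertical axes, count per window), by the first base of the window (horizontal axis, bases from the 5′ end). Dotted lines are exon joins and red lines the first and last coding base, and windows with a gap in the alignment or beyond the copy are blank. Gm10093 is at 0 over most of the coding part, while Gm4864 and AC125456.1 seldom reach 0.

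Of 1989 windows of 50 bases in the Hdac1 messenger RNA, 1167 (58.7%) had an exact match in at least 1 copy, 822 (41.3%) in none and 4 in all 3. Gm10093 matched 1121 windows exactly (56.4%), AC125456.1 matched 165 (8.30%) and Gm4864 matched 154 (7.74%). Windows that cross an exon join, which match the Hdac1 gene only as a spliced read but match a copy without a break, numbered 637 (32.0% of all). Of these, 499 matched Gm10093 exactly, 78 matched Gm4864 and 48 matched AC125456.1. With up to 1 mismatch allowed, the numbers over all windows were 1316 for Gm10093, 559 for AC125456.1 and 479 for Gm4864.

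Hdac1 (ENSMUSG00000028800, chr4:129516104-129542713, minus strand, GRCm38) is the gene that Cre targets. It had 8.35, 7.07 and 7.48 FPKM in HDAC1-cKO libraries 1, 2 and 3, against 113, 114 and 119 FPKM in WT libraries 1, 2 and 3. The genotypes were far apart and each was tight, with means of 7.63 ± 0.652 and 115.5 ± 2.90 FPKM (SD, n = 3 libraries each). These levels rested on 562, 548 and 315 reads in HDAC1-cKO and on 12017, 12964 and 9254 reads in WT. The log2 fold change of the counts was -3.91 ± 0.12 (SE; 95% interval -4.19 to -3.64). HDAC1-cKO 2, the library with the GC trend, was within the range of the other 2 in reads and the lowest in FPKM, and the log2 fold change without it was -3.87. Which exons Cre removes is not given in the sources used here, and the deposited count covers the whole gene, so reads from exons that remain may be part of the HDAC1-cKO level; the source of these reads was not tested. Among the tested genes, Hdac1 stood above 58.7% in HDAC1-cKO and above 93.5% in WT by mean FPKM.

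The 3 copies shared the genotype difference of Hdac1. Within HDAC1-cKO, by FPKM, Hdac1 and Gm10093 were lowest in HDAC1-cKO 2 and Gm4864 and AC125456.1 in HDAC1-cKO 3. Gm10093 had 190, 182 and 114 reads in HDAC1-cKO libraries, against 4046, 4503 and 3330 reads in WT libraries. Gm4864 had 91, 96 and 38 reads in HDAC1-cKO, against 1924, 2068 and 1566 in WT. AC125456.1 had 78, 63 and 32 reads in HDAC1-cKO, against 1261, 1395 and 1051 in WT. In each of them all HDAC1-cKO libraries lay far below all WT libraries, and in every library Gm10093 had the most reads and AC125456.1 the fewest. The mean level was 3.71 ± 0.348 FPKM in HDAC1-cKO and 56.7 ± 3.29 FPKM in WT for Gm10093 (SD, n = 3 each). For Gm4864 it was 1.62 ± 0.327 and 26.3 ± 1.54 FPKM, and for AC125456.1 it was 1.28 ± 0.305 and 17.7 ± 1.17 FPKM, in HDAC1-cKO and WT (SD, n = 3 each). The log2 fold changes of the counts, -3.93 ± 0.14, -3.99 ± 0.20 and -3.77 ± 0.22 (SE), stand beside -3.91 ± 0.12 for Hdac1. Gm10093 thus stood in WT, by FPKM, above 87.2% of tested genes, a level higher than that of Hdac3, Hdac2 or Hdac8. Among the 9941 processed pseudogenes in the table the copies ranked 341, 584 and 737 by mean WT FPKM.

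**Figure D2:**
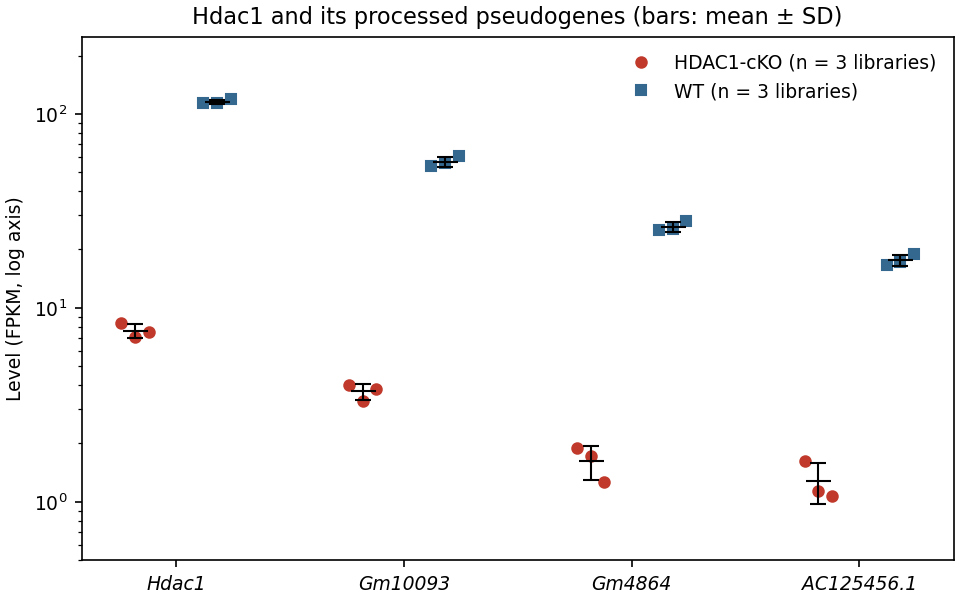
Level of Hdac1 and its 3 copies in each library (vertical axis, FPKM on a log scale), with HDAC1-cKO libraries as red circles left of WT libraries as blue squares, and the mean ± SD as bars. All 4 genes show a gap of like height between the genotypes, with HDAC1-cKO means of 7.63, 3.71, 1.62 and 1.28 FPKM against WT means of 115.5, 56.7, 26.3 and 17.7 FPKM.

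Set against the reads at Hdac1 in the same library, the reads at each copy were a similar share in both genotypes. Gm10093 counts were 33.8, 33.2 and 36.2% of the Hdac1 counts in HDAC1-cKO libraries, against 33.7, 34.7 and 36.0% in WT libraries. Gm4864 counts were 16.2, 17.5 and 12.1% of them in HDAC1-cKO, against 16.0, 16.0 and 16.9% in WT. AC125456.1 counts were 13.9, 11.5 and 10.2% of them in HDAC1-cKO, against 10.5, 10.8 and 11.4% in WT. The ranges of the genotypes overlapped for every copy, although the Hdac1 log2 fold change between them was -3.91. The scatter was wider in HDAC1-cKO, whose counts were smaller. The lowest Gm4864 share, in HDAC1-cKO 3, rests on 38 reads and the highest AC125456.1 share, in HDAC1-cKO 1, on 78 reads; the cause of the scatter was not tested. All 3 copies together took 39.0% (95% Wilson interval 35.9 to 42.2), 38.4% (35.2 to 41.6) and 36.9% (32.8 to 41.2) of the reads at Hdac1 and its copies in HDAC1-cKO libraries. In WT libraries they took 37.6% (36.9 to 38.3), 38.1% (37.4 to 38.7) and 39.1% (38.3 to 39.9). Each HDAC1-cKO interval held all 3 WT values, while the intervals of WT 1 and WT 3 did not overlap. The intervals cover counting error only.

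**Figure D3:**
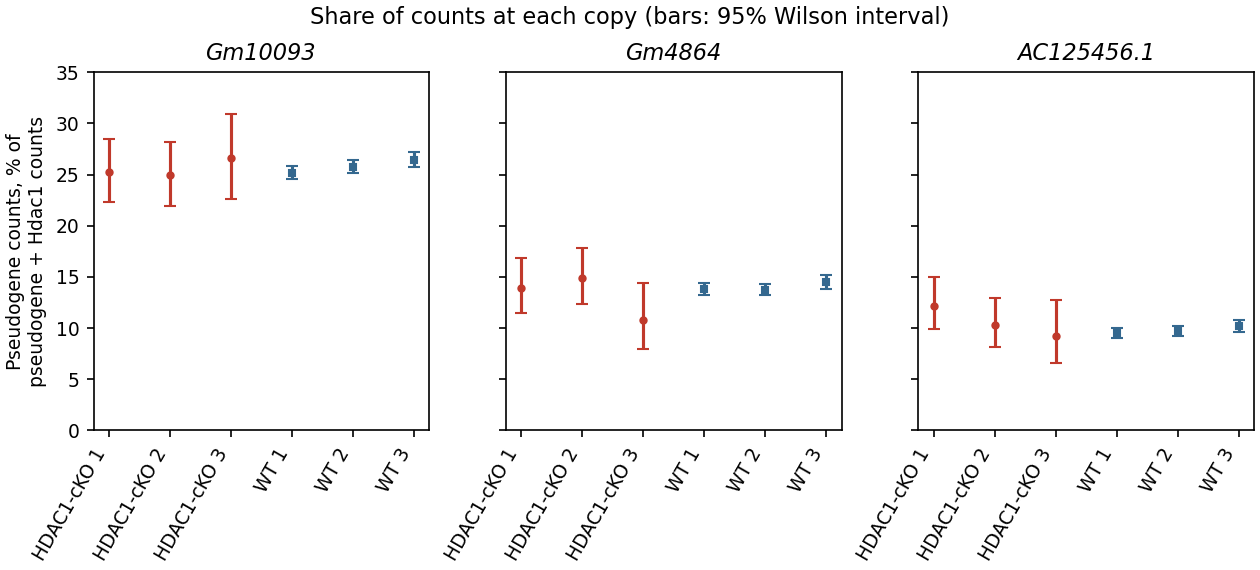
Reads at each copy as a percentage of reads at that copy plus Hdac1 (vertical axis), by library, with 95% Wilson intervals of counting error; HDAC1-cKO libraries are red circles and WT libraries blue squares. The points of both genotypes lie at like heights, at 24.9 to 26.6% and 25.2 to 26.5% for Gm10093, and the HDAC1-cKO intervals are wider.

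The sum of Hdac1 and its copies had a log2 fold change of -3.92, against -3.91 for Hdac1 alone. The number of reads did change, to 921 from 562 in HDAC1-cKO 1 and to 19248 from 12017 in WT 1. The copies' counts ran in the order of the exact windows that cross an exon join (499, 78 and 48 for Gm10093, Gm4864 and AC125456.1), whereas over all exact windows AC125456.1 came before Gm4864. With 3 copies this order is a description only. How reads that match several places were counted is not given in the sources used here. Whether reads counted at the copies came from Hdac1 messenger RNA was not tested, since the deposited tables hold counts and not reads. The copies lie on other chromosomes than Hdac1, and of the genes nearest to them all but Fut8 were at 0. Vit, 15039 bases from Gm10093, Gm48196, 46166 bases from Gm4864, and AC144861.1 and Neto1, the nearest to AC125456.1, were listed at 0 in every library. Fut8, a fucosyltransferase gene 147211 bases from Gm4864, had 12.1, 8.48 and 7.98 FPKM in HDAC1-cKO, against 12.6, 16.1 and 13.9 FPKM in WT, a difference of -0.57 ± 0.19 in log2 units (SE; edgeR adjusted p = 0.173).

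By likeness of pattern across the 6 libraries, which restates the values the copies were chosen by, they were the nearest to Hdac1 among 9914 genes with a mean of at least 5 CPM (counts per unit of library size after TMM scaling, which evens out library composition). Likeness was measured as the root mean square difference of log2 CPM after each gene was centred on its own mean. It was 0.0469 for Gm10093, 0.150 for Gm4864 and 0.175 for AC125456.1, which held the first 3 ranks. The next genes that are not predicted gene symbols were Lilr4b at 0.511, Hist1h2an at 0.679, Ccr1 at 0.851 and Apol7b at 0.961. The steps from the copies to these genes are large, but genes with predicted symbols, which the copies also carry, were left out and may lie between. As 6 libraries in 2 genotypes enter, the measure mostly reflects the size of the genotype difference.

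The paralogues were tested next, to ask whether another class I HDAC gene differed where Hdac1 was deleted. In all, 0 of the 3 was called by edgeR's quasi-likelihood test at an adjusted p under 0.05 over 15519 genes, where 1.97% of all tested genes were called (0.979% higher and 0.992% lower in HDAC1-cKO). Leaving out 1 library moved that share strongly, to 3.88% without HDAC1-cKO 2 and to 0.179% and 0.173% without HDAC1-cKO 1 and 3, and it was 0.303, 0.224 and 0.161% without WT 1, 2 and 3. At an unadjusted p under 0.05, edgeR gave 1 of the 3, Hdac3, against 17.0% of all genes. DESeq2 called Hdac3 as well, against 8.78% of all genes, and limma on log2(FPKM + 1) called 0 of the 3, against 2.67%. In 1 of the 3, again Hdac3, the libraries of the genotypes did not overlap, which was so for 24.6% of all tested genes.

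**Figure D4:**
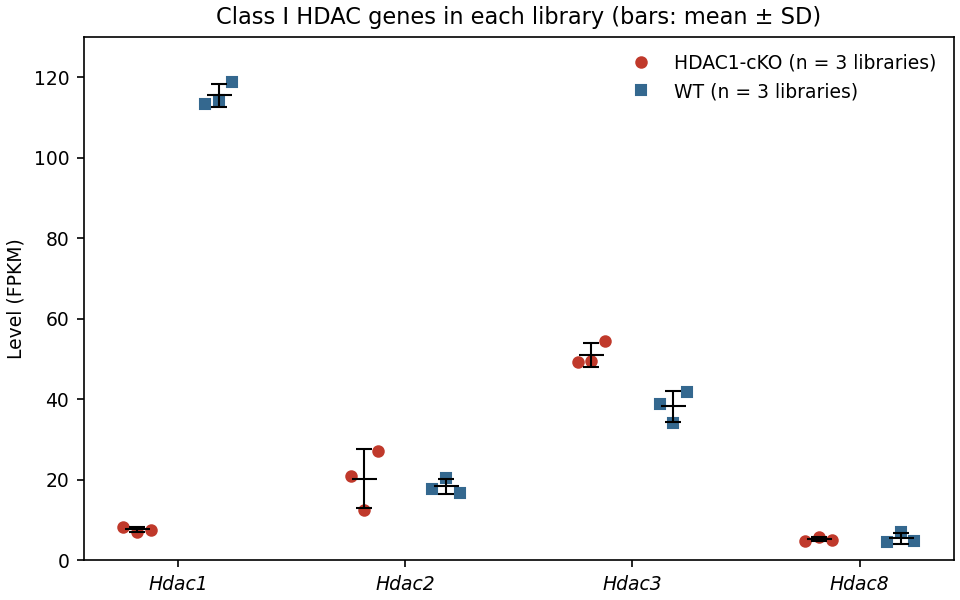
Level of the 4 class I HDAC genes in each library (vertical axis, FPKM), with HDAC1-cKO libraries as red circles left of WT libraries as blue squares, and the mean ± SD as bars. Hdac1 stands at 7.07 to 8.35 FPKM in HDAC1-cKO against 113 to 119 FPKM in WT, Hdac3 is at 49.3 to 54.4 against 34.1 to 41.9 FPKM, and Hdac2 and Hdac8 overlap.

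Hdac2 (ENSMUSG00000019777, chr10:36974544-37001889, plus strand), the partner of Hdac1 in its complexes, had 20.96, 12.5 and 27.1 FPKM in HDAC1-cKO libraries 1, 2 and 3, against 17.8, 20.5 and 16.7 FPKM in WT libraries 1, 2 and 3. The HDAC1-cKO libraries lay on both sides of all WT libraries. The means were 20.2 ± 7.31 and 18.3 ± 1.93 FPKM in HDAC1-cKO and WT (SD, n = 3 each), and the log2 difference was 0.14 ± 0.25 (SE; 95% interval -0.44 to 0.72; edgeR adjusted p = 0.840). The lowest value came from HDAC1-cKO 2, the library with the GC trend. The Hdac2 transcript has a GC content of 44.4%, against 49.95% for Hdac1 and 50.2% for Hdac3. The part of GC content in the low Hdac2 value was not tested. Without HDAC1-cKO 2 the difference was 0.38 (edgeR adjusted p = 0.183), and without HDAC1-cKO 3 it was -0.13 (edgeR adjusted p = 0.875), so the direction rested on single libraries. With each library's trend with GC content removed it was 0.20 (edgeR adjusted p = 0.614).

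Genes whose pattern was nearest to that of Hdac2 shared its low value in HDAC1-cKO 2. They were Apaf1, a component of the apoptosome (0.0732), Rell1 (0.0967), Jade1, a subunit of a histone acetyltransferase complex (0.102), and Tomm70a, a receptor of mitochondrial protein import (0.105), by the same measure over 6 libraries. Apaf1 had 3.14, 1.95 and 3.87 FPKM in HDAC1-cKO, against 2.58, 3.21 and 2.77 FPKM in WT. All 4 had overlapping libraries.

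Hdac3 (ENSMUSG00000024454, chr18:37936972-37955016, minus strand), the catalytic subunit of the NCoR and SMRT complex, had 49.3, 49.4 and 54.4 FPKM in HDAC1-cKO libraries, against 38.7, 34.1 and 41.9 FPKM in WT libraries. All HDAC1-cKO libraries lay above all WT libraries, as was the case in 12.7% of all tested genes. The means were 51.0 ± 2.94 and 38.2 ± 3.92 FPKM in HDAC1-cKO and WT (SD, n = 3 each), and the log2 difference was 0.42 ± 0.12 (SE; 95% interval 0.15 to 0.70; edgeR adjusted p = 0.118). This did not pass the threshold over all genes, while DESeq2 gave an adjusted p of 0.0287 for a log2 difference of 0.42. It was positive without any 1 library, at 0.33 to 0.49 (edgeR adjusted p from 0.0861 to 0.383). The median absolute log2 difference of all tested genes was 0.26.

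Hdac8 (ENSMUSG00000067567, chrX:102284639-102505359, minus strand), the class I enzyme outside the corepressor complexes, was the lowest of the 4 in WT and HDAC1-cKO alike. It had 4.80, 5.80 and 4.97 FPKM in HDAC1-cKO, against 4.52, 7.002 and 4.70 FPKM in WT. The genotypes overlapped, with WT 2 the highest of all 6 libraries. The means were 5.19 ± 0.535 and 5.41 ± 1.38 FPKM (SD, n = 3 each), and the log2 difference was -0.054 ± 0.23 (SE; 95% interval -0.58 to 0.47; edgeR adjusted p = 0.940). The intervals of Hdac2 and Hdac8 still allow differences of up to 0.72 and 0.47 upwards on the log2 scale, so these data do not show that their levels were the same.

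The order of the class I genes by level differed between the genotypes. In HDAC1-cKO, Hdac3 was the highest, followed by Hdac2, Hdac1 and Hdac8, and in WT Hdac1 was the highest, followed by Hdac3, Hdac2 and Hdac8. In each order the libraries of neighbouring genes did not overlap. The 4 genes together had 83.4, 74.8 and 94.0 FPKM in HDAC1-cKO, against 174, 176 and 182 FPKM in WT. The means were 84.0 ± 9.61 and 177 ± 4.11 FPKM (SD, n = 3 each), so that the summed class I transcript level of HDAC1-cKO was 47.4% of that of WT, a log2 ratio of -1.08. The difference lies in Hdac1, whose low level was among the grounds for choosing these genes. The sum takes the reads at Hdac1 and not those at its copies. By library, the copies held 36.9 to 39.1% of the reads at Hdac1 and its copies.

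Without Hdac1, the other 3 class I genes summed to 75.0, 67.7 and 86.5 FPKM in HDAC1-cKO, against 61.0, 61.5 and 63.3 FPKM in WT. All HDAC1-cKO sums were above all WT sums, with means of 76.4 ± 9.46 and 61.9 ± 1.205 FPKM (SD, n = 3 each). No test is given for this sum. In CPM, which does not divide by length, the sums overlapped, at 167 to 238 in HDAC1-cKO and 165 to 171 in WT. The Hdac1 share of the class I level was 9.14% in HDAC1-cKO and 65.1% in WT. The Hdac3 share was 61.0% and 21.5%, that of Hdac2 was 23.6% and 10.3%, and that of Hdac8 was 6.27% and 3.05%, in HDAC1-cKO and WT. These shares concern transcripts and say nothing of the amount or activity of the proteins. Like the sums, they leave out the reads at the Hdac1 copies. Whether those reads came from Hdac1 messenger RNA was not tested, so the class I sums and the Hdac1 share may be understated.

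**Figure D5:**
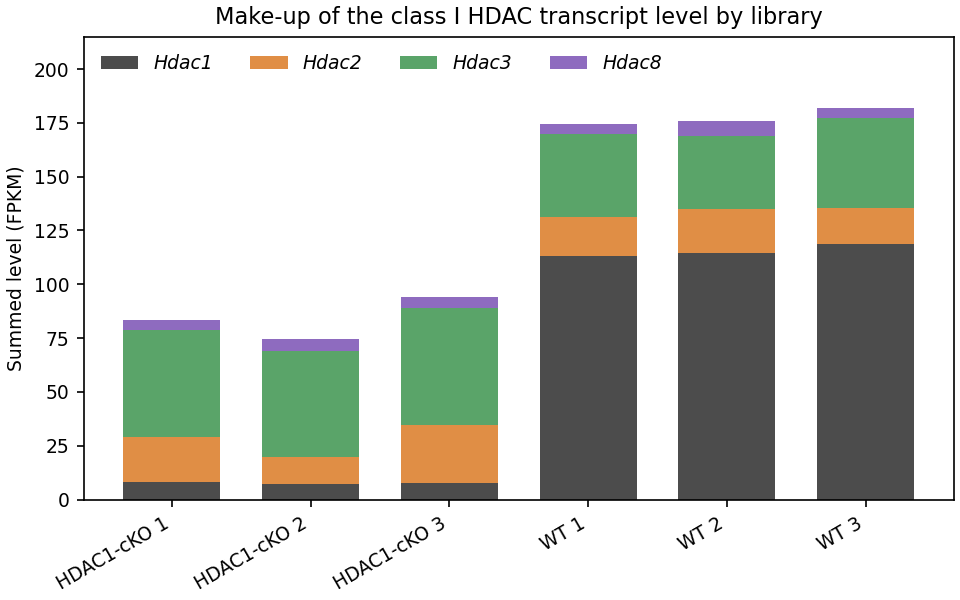
Summed level of Hdac1, Hdac2, Hdac3 and Hdac8 in each library (vertical axis, FPKM), stacked by gene from Hdac1 at the bottom to Hdac8 at the top. The HDAC1-cKO bars end at 74.8 to 94.0 FPKM and are mostly Hdac3, and the WT bars end at 174 to 182 FPKM and are mostly Hdac1.

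The other deacetylase families were read as context from lists of known members. Of 14 such genes 12 were tested, and edgeR called 0, with 7 log2 differences above and 5 below 0 and a median of 0.077, against a median of -0.0021 over all tested genes. At an unadjusted p under 0.05 edgeR gave 3 of the 12, DESeq2 called 2 (Sirt2 and Sirt3) and limma called 0, against 17.0%, 8.78% and 2.67% of all tested genes. Sirt2, a mainly cytoplasmic NAD-dependent deacetylase, had 143, 137 and 137 FPKM in HDAC1-cKO, against 93.2, 99.9 and 110 FPKM in WT, with no overlap and a difference of 0.46 ± 0.10 in log2 units (SE; edgeR adjusted p = 0.0605). Sirt3, its mitochondrial relative, differed by 0.62 ± 0.18 (SE, edgeR adjusted p = 0.128). In class IIa, Hdac5 differed by 0.76 ± 0.40 and Hdac4 by -0.23 ± 0.19 in log2 units (SE; edgeR adjusted p = 0.391 and 0.619). In class IIb, the tubulin deacetylase Hdac6 differed by 0.40 ± 0.15 and Hdac10 by 0.0051 ± 0.18 (SE, edgeR adjusted p = 0.220 and 0.993). As in Sirt2, all HDAC1-cKO libraries of Sirt3, Hdac5 and Hdac6 were above all WT libraries. This was the case in 12.7% of all tested genes.

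Other subunits of the complexes that hold class I HDACs were read in the same way. Of 45 listed genes 42 were tested, and edgeR called 0, with 23 log2 differences above and 19 below 0 and a median of 0.044. At an unadjusted p under 0.05 edgeR gave 5 of the 42, DESeq2 called 3 (Rcor2, Mier2 and Tbl1x) and limma called 1, against the same 17.0%, 8.78% and 2.67% of all tested genes, so the counts do not set these subunits apart. Rcor2, a CoREST scaffold protein, stood at 0.440, 0.531 and 0.497 FPKM in HDAC1-cKO, against 0, 0.0509 and 0.00926 FPKM in WT. All its HDAC1-cKO libraries were above all WT libraries at a low level, as in 12.7% of all tested genes, and edgeR gave an adjusted p of 0.0605. Its relative Rcor3 differed by a log2 of 0.40 ± 0.22 (SE, edgeR adjusted p = 0.422).

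In the NCoR and SMRT complex, Tbl1x, an exchange factor for corepressors, had 11.1, 10.3 and 9.78 FPKM in HDAC1-cKO, against 13.6, 16.0 and 13.9 FPKM in WT. Its libraries did not overlap, and the log2 difference was -0.48 ± 0.12 (SE, edgeR adjusted p = 0.0869). Its homologue Tbl1xr1 differed by -0.22 ± 0.16 (SE, edgeR adjusted p = 0.549). Mier2 and Mier1, which bind HDAC1 and HDAC2, differed by 0.66 ± 0.20 and -0.48 ± 0.25 in log2 units (SE; edgeR adjusted p = 0.135 and 0.391). In the NuRD complex, the remodeller gene Chd3 differed by 0.86 ± 0.34 and Mbd3 by 0.66 ± 0.24 (SE, edgeR adjusted p = 0.241 and 0.203), with overlapping libraries in both. In the SIN3 complex, Arid4b differed by -0.48 ± 0.22 and the histone chaperone gene Rbbp7 by 0.23 ± 0.10 (SE, edgeR adjusted p = 0.314 and 0.317). The libraries of Mier2 and Arid4b did not overlap between genotypes, and those of Mier1 and Rbbp7 did. In all, there was no overlap in 2 of 14 tested SIN3 genes, 2 of 10 in NuRD and 1 of 7 in CoREST. For MiDAC with the MIER genes it was 2 of 6, and for NCoR and SMRT 1 of 5, against 24.6% of all tested genes.

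The genes around Hdac1 on chromosome 4 were examined for differences beside that of Hdac1 itself. Of 13 protein-coding genes within 100 kb, 9 were tested and edgeR called 0, with a median log2 difference of 0.11 and a range of -0.46 to 0.32. At an unadjusted p under 0.05 edgeR gave 3 of the 9, against 17.0% of all tested genes, and DESeq2 and limma called 0, against 8.78% and 2.67%. Marcksl1, which ends 119 bases from the Hdac1 gene, had 137, 180 and 141 FPKM in HDAC1-cKO, against 132, 117 and 120 FPKM in WT, with no overlap and 0.32 ± 0.13 in log2 units (SE; edgeR adjusted p = 0.275). Lck, the T cell receptor kinase gene 5631 bases away on the other side, had overlapping libraries and -0.20 ± 0.12 in log2 units (SE; edgeR adjusted p = 0.460). The lowest edgeR adjusted p among these neighbours was 0.218, for Iqcc, whose HDAC1-cKO libraries were all below all WT libraries. Eif3i and Tmem234 had all HDAC1-cKO libraries above all WT libraries, at 0.25 ± 0.10 and 0.15 ± 0.11 in log2 units (SE, edgeR adjusted p = 0.247 and 0.553). Among all tested genes 24.6% had no overlap.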

How the data were processed

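For 55536 genes and 6 libraries the authors deposited raw read counts per gene and FPKM values for the same genes. Per the labels' protocols, cDNA was made by Smart-seq2 and sequenced as 50-base single reads. Per the submitters' processing notes, the tools were STAR 2.5.2b, Picard 2.19.2, DESeq2 1.24.0 and R 3.6.1, and builds of mouse and human are named. The read counter, the strand setting and the treatment of reads that match several places were not given in the sources used here. Gene identifiers match GENCODE M21 on GRCm38. Over 10896 genes the deposited FPKM were the count times a constant per gene and 1 factor per library, equal to the DESeq2 size factor, so FPKM compare between libraries. Reads carry no molecular identifiers.

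Groups follow the labelled genotype; the series text calls the replicates biological. Counts were filtered with filterByExpr (15519 genes), TMM-scaled and tested with edgeR 4.0.16 (quasi-likelihood, robust, two-sided) in R 4.3.3 at a Benjamini-Hochberg adjusted p under 0.05. DESeq2 1.42.0, limma 3.58.1, other scalings and filters, thinned counts, GC offsets, a replicate block and leaving out each library were alternatives. The procedure was tested on simulated data. Identities and windows were computed with Biopython 1.88 and Python 3.11.15 from GENCODE M21 transcripts, 1 per gene (for the coding genes, a full coding one), and figures were drawn with matplotlib 3.10.9.

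The members and gene lists were chosen with earlier results of these data known. Named genes are all members, the 2 members of lowest p per list or up to 4 called ones, the genes within 100 kb of Hdac1 or nearest to a copy, and the 4 nearest in pattern to Hdac1 and to Hdac2.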

Additional observations from a re-analysis of the deposited data

How the results depend on the processing

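The log2 fold changes of Hdac1 and its 3 copies kept their sign under all alternatives. On log2(FPKM + 1), where the pseudocount understates low genes, limma gave -3.76 for Hdac1, -3.62 for Gm10093, -3.38 for Gm4864 and -3.04 for AC125456.1. Leaving out 1 library gave -3.99 to -3.87 for Hdac1, -4.00 to -3.87 for Gm10093, -4.11 to -3.86 for Gm4864 and -3.99 to -3.67 for AC125456.1. Hdac2 was -0.13 (without HDAC1-cKO 3) to 0.38 (without HDAC1-cKO 2), Hdac3 was 0.33 to 0.49, and Hdac8 was -0.17 to 0.17 (0.165 without WT 2). Hdac3 passed the threshold with DESeq2 (0.419, adjusted p = 0.0287). Hdac8 turned positive on total counts (0.0020) and with GC offsets (0.031), and under the filter of 10 CPM it was not tested. The summed class I log2 ratio of -1.08 was -0.90 with CPM, 0.30 without Hdac1, and -1.17 to -1 without 1 library. The causes were not tested.

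Over all genes, 152 were higher and 154 lower in HDAC1-cKO with edgeR. DESeq2 gave 698 and 665, GC offsets gave 208 and 356, no low-count filter gave 243 lower, and leaving out 1 library gave 15 to 258 higher and 10 to 368 lower, the highest without HDAC1-cKO 2. A replicate block gave 34 and 31. Same-numbered libraries deviated together at correlations of 0.204, 0.0163 and -0.128. HDAC1-cKO 1 correlated best with its own number and HDAC1-cKO 2 and 3 did not. With 3 libraries per genotype these values cannot decide whether the numbers are pairs. Same-numbered libraries carry adjacent sample identifiers, and what this reflects was not tested. The main fit does not take the numbers as pairs. With the block Hdac2, Hdac3 and Hdac8 stood at 0.083, 0.43 and -0.031 (edgeR adjusted p = 0.922, 0.178 and 0.964). On total counts the median log2 fold change of all genes was 0.053.

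The smallest library held 19956153 counts, and the shares at copies in HDAC1-cKO rest on 32 to 190 reads each.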
